A study of Homo sapiens with 132 samples.

Results

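In NCI-N87 cells (N87 in the plots), 9 of 19674 protein-coding genes measured were selected by a ratio of means. By that ratio they were changed after 4 h of afatinib and back near, or past, the level of untreated cells after 24 h. The genes were selected on measured values, namely the log2 ratio of afatinib-treated over untreated means of 3 libraries, each mean taken in CPM, counts scaled to a common library total, plus 1. A gene was kept where this ratio was at least 0.9 in size at 4 h and, at 24 h, was below 0.3 in size or of opposite sign. Of 271 genes past the 4 h limit, 142 were higher and 129 lower, and the 9 genes kept were 6 higher ones, CHAC1, ADM2, CDC25C, CDKN2C, CCDC77 and MAP3K3, and 3 lower ones, IER2, ARHGEF2 and SLCO5A1. SLCO5A1 entered through 1 untreated library, and ADM2, ARHGEF2 and IER2 left the selection under another scaling of library sizes (TMM). RNA sequencing covered 4 human gastric cancer cell lines, NCI-N87, MKN7, MKN1 and Hs746T, in 44 conditions with 3 biological replicates each. All lines were left untreated or given trastuzumab (Tra, 5 µg/ml), afatinib (Afa, 0.5 µM) or Tra+Afa for 4 h or 24 h, and MKN1 and Hs746T were also given EGF (5 ng/ml), cetuximab (Cet, 1 µg/ml) or EGF+Cet. Every culture, untreated ones included, grew in medium with fetal calf serum. The controls were untreated rather than given the afatinib solvent, and solvent-treated libraries were not analysed here, so afatinib and its solvent cannot be told apart. Each line is a single established tumour line without stroma or immune cells.

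Afatinib is a small molecule that binds the kinase domains of EGFR, HER2 and HER4 covalently and so blocks the whole ERBB family from inside the cell, whereas trastuzumab is an antibody against HER2 and cetuximab an antibody against EGFR. Active ERBB receptors signal through RAS, MEK and ERK and through PI3K and AKT. ERK signalling is known for switching on immediate early genes within minutes and for driving cells from G1 into S phase. Cells that run short of amino acids or accumulate unfolded protein translate the transcription factor ATF4, which induces genes of amino acid supply and of glutathione turnover. CHAC1 encodes an enzyme that cleaves glutathione and is a known ATF4 target, and ADM2 encodes a secreted peptide of the calcitonin family. CDC25C is the phosphatase that activates CDK1 at entry into mitosis, and CDKN2C is the p18 inhibitor of CDK4 and CDK6. MAP3K3 is a kinase at the top of a MAP kinase cascade, IER2 is an immediate early gene, ARHGEF2 is a microtubule-bound activator of the GTPase RhoA, and SLCO5A1 belongs to the family of organic anion transporters.

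Stretches before a RefSeq transcription start are shown for 3 of the genes that were higher at 4 h, because each holds a short element tied by textbook knowledge to the gene's field. Each run gives the 250 bases before a RefSeq transcription start (GRCh38.p14), 5′ to 3′ on the strand of the gene. Capitals mark the match, which is TGATGCAA (an ATF4 and C/EBP element, here on the opposite strand) in CHAC1, GGCGGGAA (an E2F element) in CDKN2C and TTTGAA (a cell cycle homology region) in CDC25C. The CHAC1 run lies at chr15:40953221-40953470 on the plus strand, the CDKN2C run at chr1:50968456-50968705 on the plus strand and the CDC25C run at chr5:138331805-138332054 on the minus strand. All 3 runs lie inside the annotated span of their gene (chr15:40952962-40956519, chr1:50960745-50974633 and chr5:138285265-138338355). Each therefore precedes a start other than the outermost annotated one.
CHAC1: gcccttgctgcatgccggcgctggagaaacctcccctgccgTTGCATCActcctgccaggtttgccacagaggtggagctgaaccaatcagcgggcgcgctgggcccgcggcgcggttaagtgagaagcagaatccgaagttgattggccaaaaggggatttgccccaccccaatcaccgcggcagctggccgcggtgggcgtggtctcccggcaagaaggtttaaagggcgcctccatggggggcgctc
CDKN2C: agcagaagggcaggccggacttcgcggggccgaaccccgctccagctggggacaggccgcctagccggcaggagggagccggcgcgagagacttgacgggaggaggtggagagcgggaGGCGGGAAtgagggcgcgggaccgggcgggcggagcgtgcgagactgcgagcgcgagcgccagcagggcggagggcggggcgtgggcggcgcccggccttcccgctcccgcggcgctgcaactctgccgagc
CDC25C: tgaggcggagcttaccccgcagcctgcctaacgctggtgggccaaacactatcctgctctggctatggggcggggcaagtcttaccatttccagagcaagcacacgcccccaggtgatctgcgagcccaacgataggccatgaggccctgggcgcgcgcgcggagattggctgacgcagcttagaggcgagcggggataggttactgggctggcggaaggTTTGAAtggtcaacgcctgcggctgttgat
The match began 209 bases upstream of the start in CHAC1 and 30 in CDC25C. RefSeq windows from 250 bases before to 50 after a start were found for 8 of the 9 genes, with 17 windows. Among all 35116 windows of the table, 0.866% held the CHAC1 element on either strand, 3.16% the CDKN2C element and 15.2% the CDC25C element. Of the 17 windows, 1 held the CHAC1 element, 1 the CDKN2C element and 2 the CDC25C element. These 3 elements and the CCAAT box (CCAAT, in 34.6% of all windows and in 7 of the 17) were looked for after the sequences had been seen. The 7 windows with a CCAAT box belonged to 6 of the 8 genes. Of the elements listed beforehand, the AP-1 element TGANTCA (7.71% of all windows), the cAMP response element TGACGTCA (1.85%), the FOXO element TGTTTAC (3.42%), the STAT element TTCNNNGAA (7.66%), the serum response CArG box (1.29%) and the TATA box TATAAA (11.5%) had no match in the 17 windows. The E-box CACGTG (7.26%) was matched in CDKN2C, the ETS element CCGGAAGT (4.14%) in CCDC77 and the NF-kB element (5.91%) in ARHGEF2 and CCDC77. A match is a match of letters and shows no binding.

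Library totals ran from 25832557 to 69434151 counts over the series and from 38788878 to 63414173 in NCI-N87, where 3 counts, taken as the floor of detection, equal 0.0473 to 0.0773 CPM. Floors cover counting error only. Transcripts of the drug targets differed by line. ERBB2, which encodes HER2, ranged from 9900 to 26200 CPM in NCI-N87 and from 3400 to 7530 CPM in MKN7, against 84.5 to 196 CPM in MKN1 and 74.1 to 170 CPM in Hs746T. Epithelial markers (EPCAM, CDH1, KRT8, KRT18 and KRT19) summed to at least 4420 CPM in every library of NCI-N87, MKN7 and MKN1 but to 454 to 721 CPM in Hs746T, whose mesenchymal markers summed to 3080 to 5280 CPM. The MKN1 sum came mostly from the keratins. CDH1 was at 0.702 to 7.01 CPM in MKN1, 0.398 to 6.39 CPM in Hs746T and 188 to 382 CPM in NCI-N87. EPCAM was at 13.4 to 33.7, 16.8 to 39.9 and 301 to 551 CPM in the same lines. In NCI-N87 the leukocyte markers summed to 11.4 CPM at most and the endothelial markers to 4.28 CPM at most, while fibroblast markers, almost entirely COL1A1, summed to 12.2 to 32.4 CPM with DCN between 0 and 0.102 CPM. Some of these sums moved with Tra+Afa at 24 h in NCI-N87: mesenchymal markers were at 195 to 259 CPM with Tra and 102 to 160 CPM with Tra+Afa, fibroblast markers at 14.9 to 20.3 and 28.5 to 32.4 CPM, leukocyte markers at 5.49 to 6.6 and 9.66 to 10.6 CPM and endothelial markers at 1.25 to 1.75 and 3 to 4.22 CPM. At 4 h the mesenchymal and leukocyte sums overlapped between Tra and Tra+Afa (243 to 332 against 214 to 300 CPM, and 4.39 to 5.37 against 4.37 to 6.23 CPM), whereas the fibroblast sums (13.8 to 17.1 against 17.6 to 17.9 CPM) and the endothelial sums (1.2 to 1.61 against 1.75 to 2.19 CPM) did not. Their part in the results below was not tested.

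One library stood apart for one member. SLCO5A1 was at 15.7 CPM (864 counts) in NCI-N87 untreated 4 h replicate 2, against 0.386 and 0.078 CPM in the other untreated 4 h replicates and 0.0676 to 1.24 CPM (3 to 56 counts) in the other 23 NCI-N87 libraries. It was the only gene above 1 CPM in that library that lay more than 5 times over the highest other NCI-N87 library, and no other NCI-N87 library held such a gene. Its log2 ratio of −2.28 at 4 h therefore rested on 1 library. Without that library the selection gave 10 genes, which shared 7 with the 9. SLCO5A1 and ARHGEF2 left, and FBXO48, PSPH and SLC38A2 joined.

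The values by which the genes were chosen are given as a description, without a test. At 4 h the log2 ratios were 1.49 for CHAC1, 1.08 for CDC25C, 1.05 for CCDC77, 1.00 for CDKN2C, 0.98 for MAP3K3, 0.92 for ADM2, −0.95 for ARHGEF2 and −1.12 for IER2. At 24 h the same genes were at −0.74, 0.21, 0.03, 0.26, 0.18, 0.21, −0.28 and −0.26, and SLCO5A1 was at −0.01. CHAC1 alone had turned past 0.3 to the opposite sign. ADM2 and ARHGEF2 lay just inside the 4 h limit, with GPR19 (0.87 at 4 h and −0.44 at 24 h) and FBXO48 (0.87 and 0.01) just outside. ARHGEF2 and IER2 lay just inside the 24 h limit, with C9orf152 (−1.10 and −0.35) and SESN2 (1.14 and 0.41) just outside. All 9 genes passed the filter on low counts in NCI-N87.

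**Figure D1:**
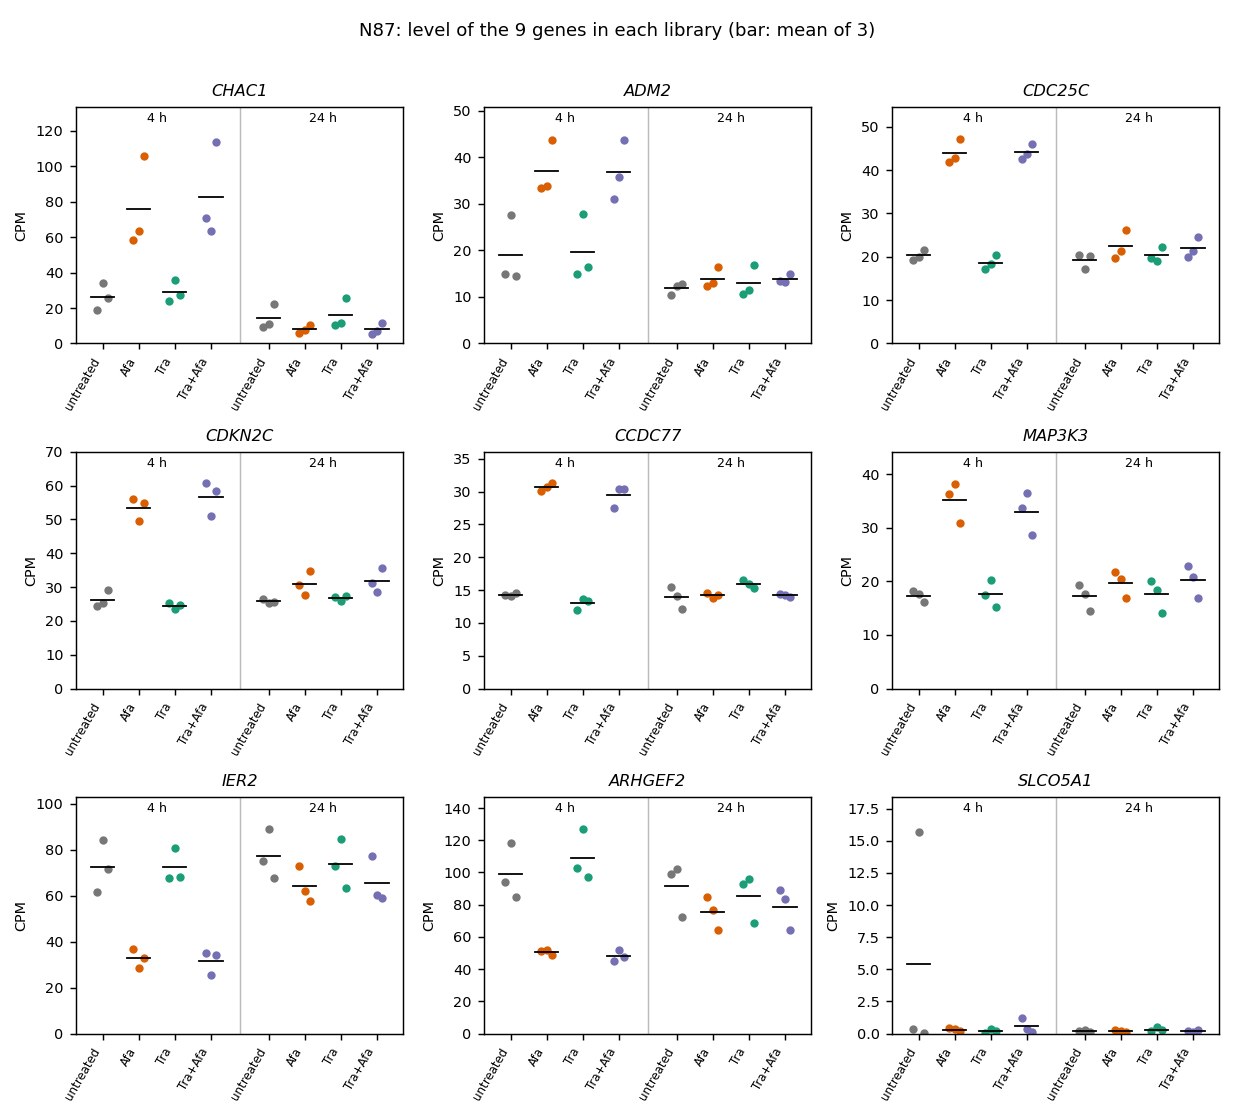
Level of the 9 genes in NCI-N87, in CPM on the library total, for each of 3 libraries per condition (dots) with the mean (bar), at 4 h and 24 h. For 8 genes the Afa and Tra+Afa dots stand apart from the untreated and Tra dots at 4 h and lie among or near them at 24 h, and SLCO5A1 is near 0 except in 1 untreated 4 h library at 15.7 CPM.

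The selection used untreated and Afa libraries only. The Tra and Tra+Afa libraries of NCI-N87 therefore served as a test of the same genes in libraries it did not use. They are not wholly separate from it. Same-numbered libraries deviated together across conditions (mean r 0.415 at 4 h), and the spread was estimated from all NCI-N87 libraries, those of the selection included. After 4 h, 8 of the 9 genes passed edgeR's quasi-likelihood test for Tra+Afa against Tra (Benjamini-Hochberg adjusted p below 0.05), beside 19.7% of the 19078 genes tested. The 6 higher genes rose, beside 9.51% of all genes that rose, and IER2 and ARHGEF2 fell, beside 10.1% that fell. A change of more than 1 on the log2 scale was reached by 6 of the 9 (CHAC1, CDC25C, CDKN2C, CCDC77, IER2 and ARHGEF2), beside 4% of all genes. The 3 Tra+Afa and the 3 Tra libraries did not overlap in CPM for 8 of the 9 genes at 4 h, beside 29.8% of all genes, and for 2 of the 9 at 24 h, beside 67.4% of all genes. The median change of the 9 genes, signed by their direction in the selection, was 1.15. The median over all genes was 0.04, but it was not signed in this way and rises and falls offset each other in it. The 2 medians are therefore not comparable in size. For trastuzumab alone against untreated cells, 0 of the 9 genes passed at either time by edgeR or DESeq2, with 1 of the 9 at an unadjusted p below 0.05 at 4 h (SLCO5A1, with the odd library among the controls) and 1 at 24 h (CCDC77, 0.17). At 4 h CCDC77 was lower with Tra than untreated in 3 of 3 pairs without overlap (means of 12.97 and 14.29 CPM), at −0.09. The share of all genes without overlap was not counted for Tra against untreated cells, so no effect of Tra is read from this separation. Over all 19078 genes edgeR called 0 (0%) in both comparisons, or 1 at 4 h and 4 at 24 h with the replicate block, while DESeq2 called 1 at each time and the unadjusted p was below 0.05 for 434 genes (4 h) and 786 genes (24 h). That comparison shares the untreated libraries with the selection.

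Both genes linked to stress responses or secretion rose at 4 h with a wide spread between replicates. CHAC1 (chr15:40952962-40956519, GRCh38) was at 24.0, 36.0 and 27.1 CPM in the Tra replicates 1, 2 and 3 at 4 h and at 70.6, 63.6 and 114 CPM in the Tra+Afa replicates, a ratio of means of 2.85. Every Tra+Afa library exceeded every Tra library, and the change was 1.45 on the log2 scale (SE 0.39, n = 3 libraries per group, edgeR adjusted p = 0.0101). At 24 h CHAC1 was at 10.3, 11.8 and 25.6 CPM with Tra and at 5.63, 7.10 and 11.6 CPM with Tra+Afa. The groups then overlapped, each replicate number was lower with Tra+Afa than with Tra, and the change was −1.26 (SE 0.41, edgeR adjusted p = 0.0106). Untreated cells had 19.2, 34.03 and 25.9 CPM at 4 h and 9.05, 11.3 and 22 CPM at 24 h, close to the Tra values, and Afa alone gave 58.5, 63.2 and 106 CPM at 4 h and 5.92, 7.64 and 10.5 CPM at 24 h. Leaving out replicate 1 or replicate 2 put the 4 h change of CHAC1 above the threshold (1.42 with adjusted p = 0.0599, and 1.78 with adjusted p = 0.0524), and the 24 h change did not pass without replicate 2 (−1.36, adjusted p = 0.0537).

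ADM2 (chr22:50481556-50486440) was at 14.9, 27.7 and 16.3 CPM with Tra and at 31.0, 35.8 and 43.7 CPM with Tra+Afa at 4 h, groups that did not overlap. The change was 0.85 (SE 0.25, edgeR adjusted p = 0.0168), the weakest call of the 8. At 24 h ADM2 was at 10.7, 11.5 and 16.8 CPM with Tra and at 13.5, 13.3 and 15.01 CPM with Tra+Afa, and the difference of −0.19 (SE 0.25) was within the replicate spread. The 4 h call of ADM2 was lost without replicate 1 (0.77, adjusted p = 0.129) and without replicate 3 (0.59, adjusted p = 0.182). Replicate 2 was the highest of the 3 with Tra and with no treatment at 4 h, for ADM2 as for CHAC1.

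The 2 regulators of the cell cycle rose with little spread between replicates. CDC25C (chr5:138285265-138338355) was at 17.1, 18.4 and 20.4 CPM with Tra and at 42.5, 43.6 and 46.1 CPM with Tra+Afa at 4 h. The lowest Tra+Afa library was above the highest Tra library by a factor of more than 2, and the change was 1.18 (SE 0.13, edgeR adjusted p = 9.57e-07). At 24 h CDC25C was at 19.8, 19.0 and 22.3 CPM with Tra and at 19.9, 21.4 and 24.6 CPM with Tra+Afa, with overlapping groups and a difference of −0.17 (SE 0.13, adjusted p = 0.259). In RNA from whole cultures, a change in every cell cannot be told apart from a change in the share of cells that make the transcript, nor fewer such cells from less RNA per cell. CDKN2C (chr1:50960745-50974633) was at 25.3, 23.5 and 24.6 CPM with Tra and at 60.7, 51.1 and 58.5 CPM with Tra+Afa at 4 h, a change of 1.15 (SE 0.12, edgeR adjusted p = 5.99e-07). At 24 h the Tra values were 27.0, 25.8 and 27.4 CPM and the Tra+Afa values 31.2, 28.5 and 35.5 CPM. These groups did not overlap in CPM, but on the TMM scale the difference was −0.03 (SE 0.12, adjusted p = 0.835). Scaling by the library total alone turned it to 0.25 (adjusted p = 0.0293). TMM scaling moved the median gene by 0.282 relative to library totals in the 24 h comparison and by 0.0663 in the 4 h comparison. The sign of 24 h values below about 0.282 can therefore depend on the scaling. Calls on larger 24 h values can be lost too, as given below for CCDC77, IER2 and ARHGEF2.

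CCDC77 (chr12:389273-442645), a coiled-coil protein gene, gave the smallest adjusted p of the 9. It was at 11.9, 13.6 and 13.4 CPM with Tra and at 27.5, 30.4 and 30.5 CPM with Tra+Afa at 4 h, a change of 1.116 (SE 0.08, edgeR adjusted p = 1.45e-09). At 24 h it was at 16.6, 15.9 and 15.3 CPM with Tra and at 14.3, 14.2 and 14.0 CPM with Tra+Afa, so that every Tra+Afa library lay below every Tra library. The 24 h fall was −0.45 (SE 0.08, adjusted p = 4.45e-05), and it was −0.17 (adjusted p = 0.0885) when scaled by the library total alone. MAP3K3 (chr17:63622415-63696303) was at 17.5, 20.3 and 15.2 CPM with Tra and at 33.7, 36.5 and 28.7 CPM with Tra+Afa at 4 h, a change of 0.84 (SE 0.13, edgeR adjusted p = 5.22e-05). Replicate 2 was the highest and replicate 3 the lowest in both groups. At 24 h MAP3K3 was at 20.1, 18.4 and 14.2 CPM with Tra and at 22.9, 20.8 and 16.9 CPM with Tra+Afa, a difference of −0.08 (SE 0.13) with overlapping groups.

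The 2 lower genes with more than trace levels fell by more than 1 on the log2 scale at 4 h. IER2 (chr19:13150415-13154908) was at 67.8, 80.8 and 68.3 CPM with Tra and at 35.2, 25.6 and 34.1 CPM with Tra+Afa at 4 h, a change of −1.25 (SE 0.15, edgeR adjusted p = 3.73e-06). At 24 h it was at 72.7, 84.8 and 63.5 CPM with Tra and at 77.2, 60.1 and 58.8 CPM with Tra+Afa. Replicate 1 of Tra+Afa was then above replicate 1 of Tra and the groups overlapped, and the remaining change was −0.46 (SE 0.15, adjusted p = 0.0128). ARHGEF2 (chr1:155946851-156007070) was at 103, 127 and 97.4 CPM with Tra and at 45.02, 51.7 and 47.6 CPM with Tra+Afa at 4 h, a change of −1.25 (SE 0.14, edgeR adjusted p = 9.52e-07). At 24 h it was at 92.7, 95.7 and 68.3 CPM with Tra and at 89.1, 83.4 and 64.0 CPM with Tra+Afa, a change of −0.40 (SE 0.14, adjusted p = 0.0147) with overlapping groups. Scaled by the library total alone, the 24 h changes of IER2 and ARHGEF2 were −0.17 and −0.12 and did not pass. Those 24 h calls also rested on single replicates: IER2 was at −0.29 (adjusted p = 0.0916) without replicate 2 and did not pass without replicate 3, and ARHGEF2 did not pass without replicate 1 or replicate 2. SLCO5A1 was at 0.0676, 0.315 and 0.171 CPM with Tra and at 1.24, 0.322 and 0.110 CPM with Tra+Afa at 4 h, that is 3 to 56 counts. The Tra+Afa libraries did not repeat the lower value seen in the selection (1.45, SE 1.27, adjusted p = 0.499).

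Whether the effect itself differed between the times was tested in the Tra and Tra+Afa libraries as the 4 h change minus the 24 h change. It differed for 8 of the 9 genes by edgeR's quasi-likelihood test, beside 33.6% of all genes. The difference was 2.71 for CHAC1, 1.56 for CCDC77, 1.35 for CDC25C, 1.18 for CDKN2C, 1.04 for ADM2, 0.92 for MAP3K3, −0.79 for IER2 and −0.84 for ARHGEF2. The adjusted p ran from 1.05e-09 for CCDC77 to 0.0265 for ADM2. ADM2 lost this call without replicate 1 (adjusted p = 0.112), without replicate 3 (adjusted p = 0.272) and on library totals alone (0.81, adjusted p = 0.0719), and IER2 lost it without replicate 3 (adjusted p = 0.0623). After 24 h, 4 of the 9 genes still passed the test against Tra, beside 61.8% of all genes: CHAC1 and CCDC77 below Tra, in the direction opposite to 4 h, and IER2 and ARHGEF2 below Tra as at 4 h but by less.

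The return could be read within the treatments as well. From 4 h to 24 h of Tra+Afa, 8 of the 9 genes moved opposite to their 4 h change, beside 59.7% of all genes that passed the test. CHAC1 fell by 3.65, ADM2 by 1.71, CCDC77 by 1.36, CDC25C by 1.31, CDKN2C by 1.15 and MAP3K3 by 1.02 on the log2 scale, and IER2 and ARHGEF2 rose by 0.73 and 0.40. ARHGEF2 did not pass without replicate 1 (0.34, adjusted p = 0.148) or without replicate 2 (0.40, adjusted p = 0.0563). From 4 h to 24 h of Tra alone, 0 of the 9 passed, beside 4.71% of all genes, with 4 of the 9 at an unadjusted p below 0.05 and 1 (ARHGEF2, −0.45) called by DESeq2. Replicate numbers paired the NCI-N87 libraries, and with the replicate number as a block 3 of the 9 passed in Tra alone, beside 2818 of 19078 genes. They were CHAC1 (−1.06, adjusted p = 0.00168), ADM2 (−0.68, adjusted p = 0.0215) and ARHGEF2 (−0.45, adjusted p = 0.00123). In that fit CHAC1 was lower at 24 h than at 4 h in cultures without afatinib too.

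**Figure D2:**
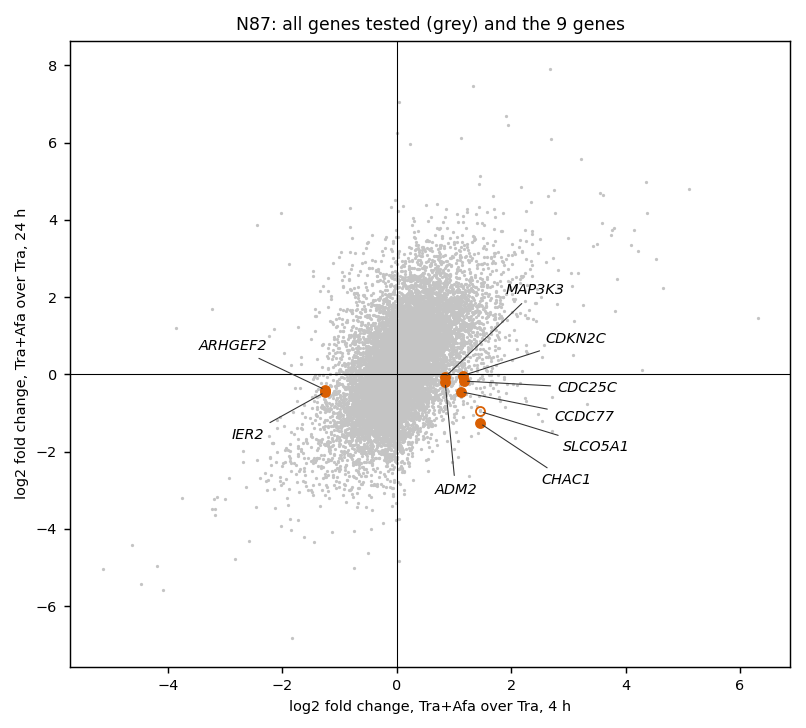
Log2 fold change of Tra+Afa over Tra in NCI-N87 after 4 h (x axis) and after 24 h (y axis) for the 19078 genes tested (grey) and the 9 genes (coloured, named, open for SLCO5A1). The 8 genes with more than trace counts sit away from 0 on the x axis, between −1.25 and 1.45, and all but CHAC1 lie between −0.46 and −0.03 on the y axis.

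The wider fields of these genes were described with gene lists, by counts and medians in the same comparison. Of 3751 genes that passed the 4 h test over the whole table, 742 were below 0.3 in size or of opposite sign at 24 h. Of 16 tested ATF4 and ER stress genes, CHAC1 included, 4 rose and 1 fell at 4 h, and 1 rose and 8 fell at 24 h, with medians of 0.27 and −0.42 beside 0.04 and 0.04 over all genes. Over all genes, 9.51% rose and 10.1% fell at 4 h, and 31.5% rose and 30.3% fell at 24 h, and these shares stand beside the counts of each list. The rise at 4 h was shared by SESN2 (0.98), a stress-induced inhibitor of mTORC1, PHGDH (0.75), the first enzyme of serine synthesis, and DDIT4 (1.81), another mTORC1 inhibitor. DDIT4 stayed high at 24 h (2.01), PHGDH was at −0.25 (adjusted p = 0.344) and SESN2 at 0.16 (adjusted p = 0.598). PSAT1 and ASNS, enzymes of serine and asparagine synthesis, missed the threshold at 4 h (0.68 with adjusted p = 0.0621, and 0.55 with adjusted p = 0.146) and fell by 1.71 and 0.71 at 24 h. ATF4 itself was at 0.23 at 4 h and −0.27 at 24 h (adjusted p = 0.453 and 0.205), and DDIT3, which encodes the CHOP factor, at 0.01 and −0.02. The 4 h minus 24 h difference was positive and past the threshold for 9 of the 16 and negative for 0 of them, beside 19.5% positive and 14.1% negative over all genes.

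Of 29 tested S phase and mitosis genes, 4 rose and 3 fell at 4 h, with a median of 0.06, and all 29 fell at 24 h, with a median of −1.87. TOP2A and CENPF, mitotic genes, rose by 0.40 and 0.53 at 4 h and fell by 1.13 and 0.69 at 24 h, and CCNE1, the cyclin of the G1 to S transition, fell at both times (−1.01 and −2.48). CDC25C, which was not in that list, was at 1.18 and −0.17. Among 12 tested BTG/TOB and CDK inhibitor genes, CDKN2C included, 5 rose and 4 fell at 4 h and 6 rose and 5 fell at 24 h. CDKN1C, the p57 inhibitor, was raised at both times (2.36 and 2.56), as was CDKN1B, the p27 inhibitor (0.67 and 0.51), and CDKN2D, the p19 inhibitor, was at −0.05 (adjusted p = 0.888) and −0.73. CCND1, the cyclin partner of CDK4 and CDK6, fell by 1.68 and 1.93.

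Of 21 tested immediate early genes, IER2 included, 15 fell and 0 rose at 4 h and 12 fell and 3 rose at 24 h, with medians of −0.70 and −0.62. EGR1, FOS and FOSL1, transcription factors induced by ERK signalling, were at −4.19, −3.17 and −3.17 at 4 h and at −4.97, −3.49 and −3.64 at 24 h, and MYC was at −2.10 and −2.02. IER2 went from −1.25 to −0.46 over the same interval. The 4 h minus 24 h difference passed the threshold for 3 of the 21 as negative, that is with a lower value at 4 h, and for 1 as positive, a share of negative differences near that of all genes (14.1%).

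**Figure D3:**
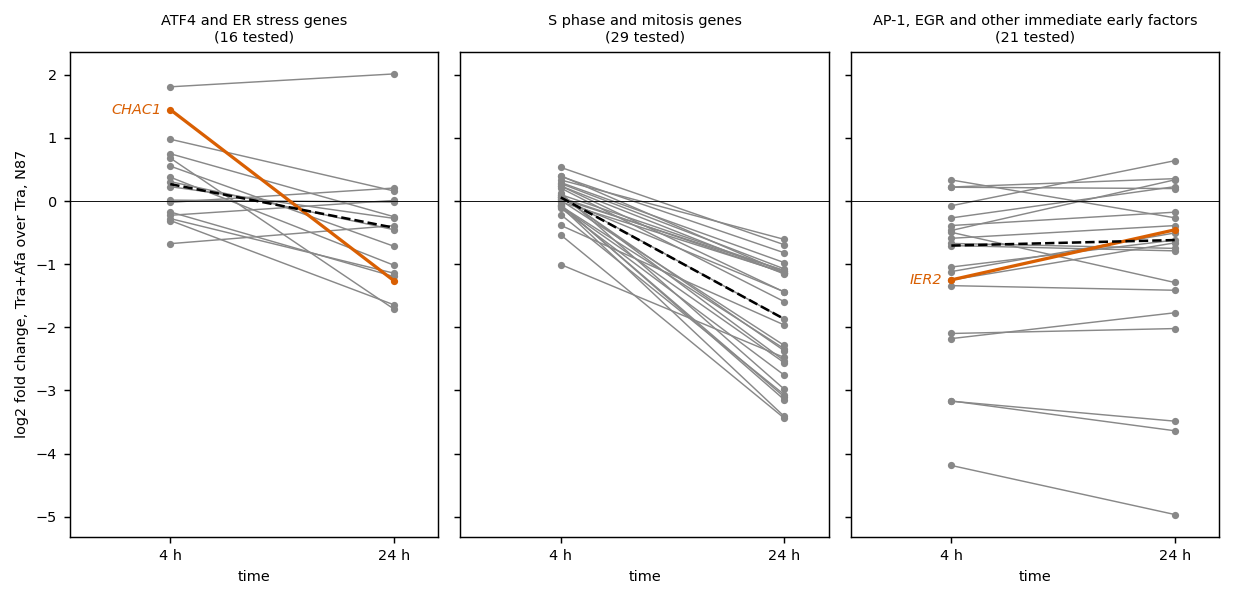
Log2 fold change of Tra+Afa over Tra in NCI-N87 at 4 h and 24 h, 1 line per gene, for 3 gene lists, with the list's median (dashed) and its member among the 9 genes (coloured). The 29 S phase and mitosis genes go from a median of 0.06 to −1.87, CHAC1 goes from 1.45 to −1.26, and IER2 returns from −1.25 to −0.46 while the median of its list goes from −0.70 to −0.62.

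Some of the genes share their position with another gene, and the strand setting of the authors' counting is not given in the sources used here. CDC25C overlaps FAM53C on the opposite strand, which changed by 0.30 at 4 h (edgeR adjusted p = 0.00154) against 1.18 for CDC25C. CCDC77 overlaps KDM5A (0.25 at 4 h, adjusted p = 0.0676, and 0.39 at 24 h), and MAP3K3 overlaps LIMD2 (−0.30, adjusted p = 0.417) and STRADA, which had a mean of 0 CPM with Tra. STX10, which starts next to IER2, was at 0.01 at 4 h. IER2 and ARHGEF2 overlap non-coding genes only. CHAC1, ADM2 and CDKN2C overlap no annotated gene, although FAF1, next to CDKN2C, was at −0.09 at 4 h and −0.98 at 24 h. The 9 genes spanned 3558 to 168018 bases with a median of 53091, beside 35869 over the 14197 protein-coding genes tested in NCI-N87, and their median level with Tra at 4 h was 19.6 CPM beside 21.5 CPM.

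MKN7, the other line with high ERBB2 levels, was used in no part of the selection. After 4 h of Afa against untreated cells, 6 of the 9 genes passed edgeR's quasi-likelihood test, all in the NCI-N87 direction, beside 22.2% of 18483 genes. CDKN2C rose by 1.19 (SE 0.16), CDC25C by 0.99 (SE 0.08), CCDC77 by 0.64 (SE 0.10) and MAP3K3 by 0.53 (SE 0.07), and ARHGEF2 and IER2 changed by −1.65 (SE 0.15) and −0.92 (SE 0.12). CDC25C went from 23.2, 27.1 and 26.2 CPM in untreated cells to 48.2, 55.1 and 57.1 CPM with Afa at 4 h, and was at 37.3, 35.1 and 31.1 CPM against 31.6, 30.6 and 32.03 CPM at 24 h. The groups did not overlap at 4 h and overlapped at 24 h, when the untreated libraries were higher than at 4 h. CDKN2C went from 5.68, 5.02 and 4.44 CPM to 11.8, 11.3 and 13.5 CPM at 4 h. IER2 went from 41.4, 40.7 and 49.1 CPM to 27.6, 22.9 and 23.0 CPM at 4 h and was at 33.9, 33.9 and 45.4 CPM against 39.6, 35.2 and 39.1 CPM at 24 h.

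CHAC1 and ADM2 did not follow in MKN7. CHAC1 was at 1.19, 1.44 and 2.36 CPM in untreated cells and at 1.81, 1.43 and 1.51 CPM with Afa at 4 h (−0.15, SE 0.33), over a range of 0.969 to 2.80 CPM in the 24 MKN7 libraries beside 5.63 to 114 CPM in the 24 NCI-N87 libraries. ADM2 was at −0.28 (SE 0.24) at 4 h and fell by 0.67 at 24 h (adjusted p = 0.0205). ARHGEF2 stayed lower in MKN7. It was at 225, 229 and 306 CPM in untreated cells and at 83.6, 86.0 and 86.4 CPM with Afa at 4 h, and at 151, 133 and 210 CPM against 99.2, 84.4 and 89.7 CPM at 24 h. The groups did not overlap at either time, and the 24 h change was −0.98 (SE 0.15, edgeR adjusted p = 1.78e-05). With Afa for 24 h, 3 of the 9 genes passed in all (ARHGEF2, ADM2 and CDC25C, the last at −0.25), beside 51.6% of all genes. ADM2 and CDC25C did not pass without replicate 2, nor ADM2 without replicate 3.

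The effect of Afa in MKN7 differed between 4 h and 24 h for 6 of the 9 genes, beside 18% of all genes, by 1.46 for CDKN2C, 1.24 for CDC25C, 0.74 for CCDC77, 0.54 for MAP3K3, −0.81 for IER2 and −0.67 for ARHGEF2. ARHGEF2 lost this call without replicate 1 (−0.58, adjusted p = 0.287) and without replicate 2 (−0.65, adjusted p = 0.110). In the separate Tra and Tra+Afa libraries of MKN7, 6 of the 9 passed at 4 h (beside 20.5%), 1, ARHGEF2, at 24 h (beside 44.4%) and 6 in the difference between the times (beside 9.39%), in the same directions. At 24 h DESeq2 called 2, with CDKN2C at −0.38 as the addition, beside 8280 of 18483 genes. The replicate block called 2 at 24 h, with ADM2 at −0.52 as the addition, beside 10176 of 18483 genes. Trastuzumab alone changed 0 genes in MKN7 by edgeR (0%), and 0 by DESeq2, while the unadjusted p was below 0.05 for 661 genes (4 h) and 590 genes (24 h).

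In MKN1, which has low ERBB2 and moderate EGFR levels (199 to 585 CPM), the same genes moved by less. After 4 h of Afa, 4 of the 9 passed, beside 3.68% of 19815 genes. IER2 went from 48.1, 46.3 and 50.8 CPM to 28.6, 31.2 and 32.8 CPM (−0.75, SE 0.13), and ARHGEF2 from 60.9, 58.8 and 63.9 CPM to 45.1, 46.8 and 45.8 CPM (−0.51, SE 0.06). CDC25C went from 14.6, 14.8 and 13.8 CPM to 19.5, 19.95 and 21.1 CPM (0.39, SE 0.10), and CCDC77 rose by 0.28 (SE 0.08). Afa and untreated libraries did not overlap for any of these 4 genes, which were called in the same libraries. The share of all genes without overlap was not counted in MKN1, so this adds no separate support. CDKN2C was at 0.31 (adjusted p = 0.0761), and passed with the replicate number as a block (adjusted p = 0.00704). The calls of CDC25C and CCDC77 were lost when any 1 replicate was left out, whereas that of ARHGEF2 held in each case and that of IER2 was lost without replicate 1 (adjusted p = 0.0741).

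After 24 h of Afa in MKN1, 1 of the 9 passed (IER2, −0.50, beside 25.6% of all genes, lost without replicate 1 or 3), and the effects at the 2 times differed for 3 of the 9 (ARHGEF2 −0.52, CDC25C 0.49 and CCDC77 0.46, beside 2.77%). None of these 3 held in every leave-one-out fit. Tra+Afa against Tra gave 5 of the 9 at 4 h (beside 3.08%), with CDKN2C at 0.34 as the addition, 0 of the 9 at 24 h by edgeR or DESeq2 (beside 27.9%, with 2 at an unadjusted p below 0.05) and 3 of the 9 in the difference between the times (beside 4.14%). With the replicate block, 5 of the 9 passed for Tra+Afa against Tra at 24 h, beside 8653 of 19815 genes. They were IER2 (−0.31) and, opposite to the NCI-N87 direction at 4 h, CHAC1 (−0.43), ADM2 (−0.36), CDC25C (−0.25) and MAP3K3 (−0.16). On library totals ARHGEF2 passed (0.22), beside 5922 of 19815 genes. Not every same-numbered pair of MKN1 libraries correlated above 0.1 at 24 h (lowest r −0.0184), so the pairing that the block assumes is uncertain there. CHAC1, ADM2 and MAP3K3 passed in none of these MKN1 comparisons in the edgeR fit of all replicates without the block. Without replicate 2, ADM2 passed that test after 24 h of Afa (−0.47, adjusted p = 0.0386), opposite to the NCI-N87 direction at 4 h.

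EGF moved the genes of MKN1 the other way. After 4 h of EGF, 5 of the 9 passed edgeR's quasi-likelihood test, each opposite to its afatinib direction in NCI-N87, beside 6.82% of all genes. IER2 rose to 72.1, 76.1 and 82.5 CPM (0.77, SE 0.13) and ARHGEF2 to 90.6, 88.2 and 92.8 CPM (0.67, SE 0.06). CDKN2C fell from 60.3, 51.4 and 49.4 CPM to 32.8, 28.1 and 30.5 CPM (−0.71, SE 0.10), CDC25C to 10.2, 10.3 and 9.68 CPM (−0.41, SE 0.10), and CCDC77 by 0.26. EGF and untreated libraries overlapped for none of these 5 genes, which were called in the same libraries. The share of all genes without overlap was not counted, so this adds no separate support. CCDC77 did not pass when any 1 replicate was left out, nor CDC25C without replicate 1 (adjusted p = 0.238). The EGF, Cet and Afa comparisons of MKN1 share their untreated libraries, so their values are given side by side and not as separate support. After 24 h of EGF, 3 of the 9 passed (CDKN2C −0.66, CCDC77 −0.26 and ARHGEF2 0.29, beside 35.8%), and ARHGEF2 was at 0.09 (adjusted p = 0.270) on library totals alone. CCDC77 did not pass without replicate 2 (−0.14, adjusted p = 0.348), with no filter (adjusted p = 0.0561) or in a fit on the compared groups (adjusted p = 0.149).

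After 4 h of cetuximab, 2 of the 9 passed, both in the direction of afatinib, beside 1.43% of all genes. ARHGEF2 went to 49.7, 48.5 and 48.2 CPM (−0.40, SE 0.06) and IER2 to 28.7, 37.7 and 35.5 CPM (−0.58, SE 0.13), and CDKN2C was at 74.3, 68.9 and 73.0 CPM (0.35, adjusted p = 0.0681). IER2 did not pass without replicate 1 or 3, nor ARHGEF2 without replicate 3 (adjusted p = 0.0695). In MKN1 the deviations of same-numbered libraries from their group means correlated at a mean r of 0.321 at 4 h and 0.241 at 24 h. Every such pair was above 0.1 at 4 h but not at 24 h, where the lowest r was −0.0184. With the replicate number as a block CDKN2C and CDC25C also passed after 4 h of Cet, beside 1159 of 19815 genes. After 24 h of Cet, IER2 was the 1 gene of the 9 that passed (−0.49, beside 10.8%), and it did not pass without replicate 1 or 3. Against EGF alone, EGF+Cet lowered ARHGEF2 at 4 h (−0.32, adjusted p = 0.00219, 1 of the 9 genes beside 0.701%) to 78.1, 67.9 and 80.7 CPM, a call lost without replicate 1 or 3, and CDKN2C was at 0.39 (adjusted p = 0.051). At 24 h, 0 of the 9 passed by edgeR in that comparison, beside 0.646%, with 3 at an unadjusted p below 0.05. DESeq2 called 1 (ARHGEF2, −0.22), library totals 1 (CDKN2C, 0.35) and the replicate block both, beside 289, 108 and 1053 of 19815 genes in that order. Trastuzumab alone changed 0 genes in MKN1 by edgeR (0%), and 0 by DESeq2, while the unadjusted p was below 0.05 for 254 genes (4 h) and 158 genes (24 h).

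**Figure D4:**
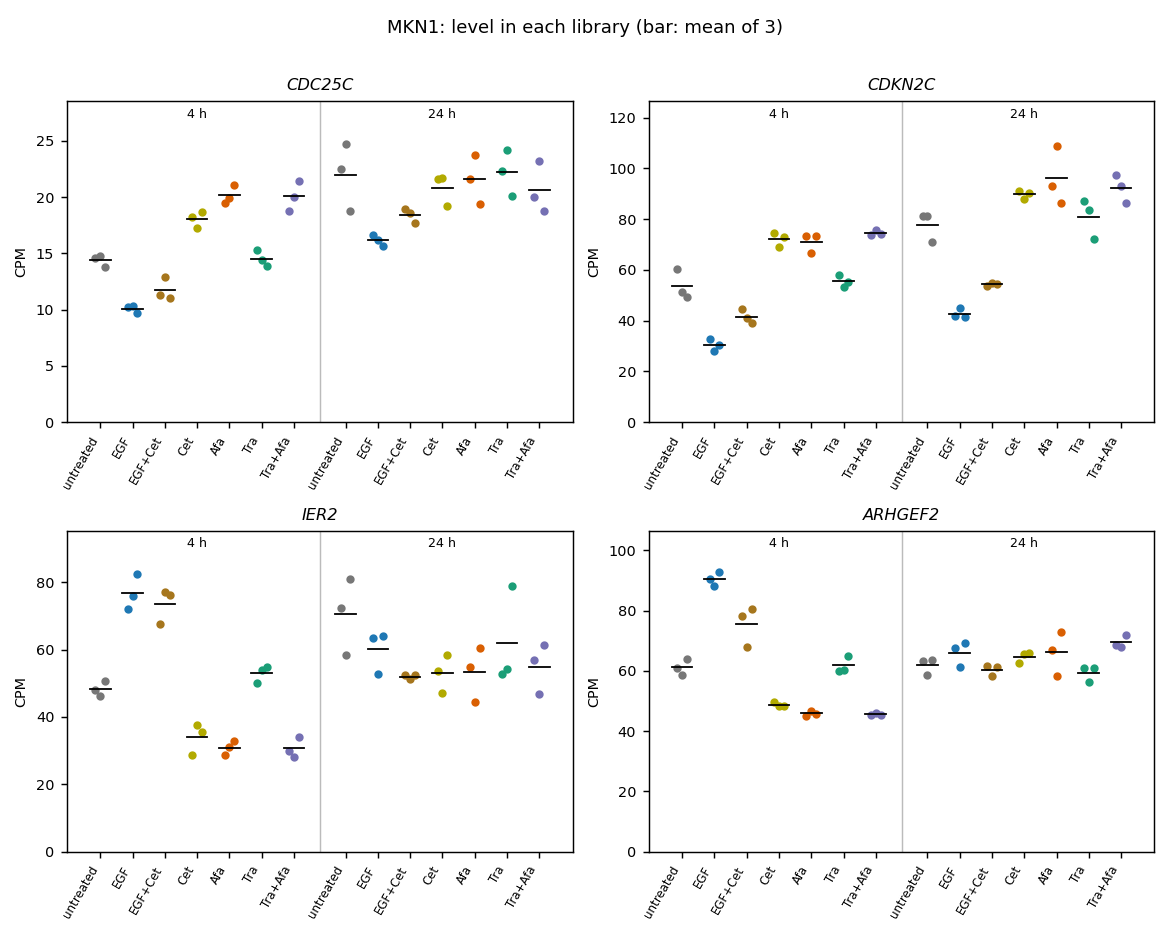
Level of CDC25C, CDKN2C, IER2 and ARHGEF2 in MKN1, in CPM on the library total, for each of 3 libraries per treatment (dots) with the mean (bar), at 4 h and 24 h. At 4 h the EGF libraries lie on one side of the untreated ones and the Cet and Afa libraries on the other, with ARHGEF2 at 88.2 to 92.8 CPM after EGF and 45.1 to 46.8 CPM after Afa.

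Hs746T, with low ERBB2 levels and MET at 3210 to 5620 CPM, showed no called change of these genes. ADM2 had 0 to 6 counts per library and was not tested, and of the other 8 genes 0 passed after Afa, EGF, Cet, EGF+Cet, Tra or Tra+Afa at either time, where edgeR called 0% of 18667 genes in each comparison. After 4 h of Afa, 1371 genes had an unadjusted p below 0.05, 1 of the 8 among them, and DESeq2 called 1 gene in all and 0 of the 8. In the other comparisons 125 to 389 genes had an unadjusted p below 0.05, and DESeq2 called 2 genes after 24 h of Afa, 0 of the 8 among them, and 0 genes elsewhere. With the replicate number as a block edgeR called 6 genes after 4 h of Afa, 15 after 24 h, 1 and 13 for Tra+Afa against Tra, 2 for EGF at each time and 0 in the other comparisons, 0 of the 8 among them. The genes were not silent there. CDC25C ranged from 15.9 to 19.9 CPM, CDKN2C from 112 to 138 CPM, ARHGEF2 from 169 to 213 CPM and SLCO5A1 from 11.5 to 22.5 CPM over the 42 Hs746T libraries. The SLCO5A1 level of the odd NCI-N87 library, 15.7 CPM, falls in that Hs746T range, and where those counts came from was not tested.

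Whether the 4 h effect differed between lines was tested in a fit of the libraries of all 4 lines, as Tra+Afa over Tra in NCI-N87 minus the same in another line. Against MKN1, 5 of the 9 genes differed by edgeR's quasi-likelihood test, beside 2.43% of 22832 genes: CDKN2C by 0.80, CDC25C by 0.78, MAP3K3 by 0.77, CCDC77 by 0.75 and ARHGEF2 by −0.73, each larger in NCI-N87. Without replicate 1, 2 of the 9 did. Against Hs746T, 6 of the 9 differed, beside 6.86%, by 0.83 (MAP3K3) to 1.16 (CDC25C) for the 4 higher ones and by −1.24 (ARHGEF2) and −1.33 (IER2). Against MKN7, 1 of the 9 differed, CCDC77 by 0.62 (SE 0.13, adjusted p = 0.00158), beside 0.959%, and 0 did without replicate 2 or without replicate 3. CHAC1 and ADM2 differed from MKN7 by 1.32 (SE 0.52, adjusted p = 0.355) and 1.00 (SE 0.36, adjusted p = 0.239). Both passed with the replicate number within each line as a block (1.25 with adjusted p = 0.00836, and 0.99 with adjusted p = 0.00492), as did CDC25C, CCDC77 and MAP3K3. With the block this was 5 of the 9 in all, beside 1278 of 22832 genes. For ARHGEF2 the difference from MKN7 was 0.26 (SE 0.16), with the larger fall in MKN7.

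**Figure D5:**
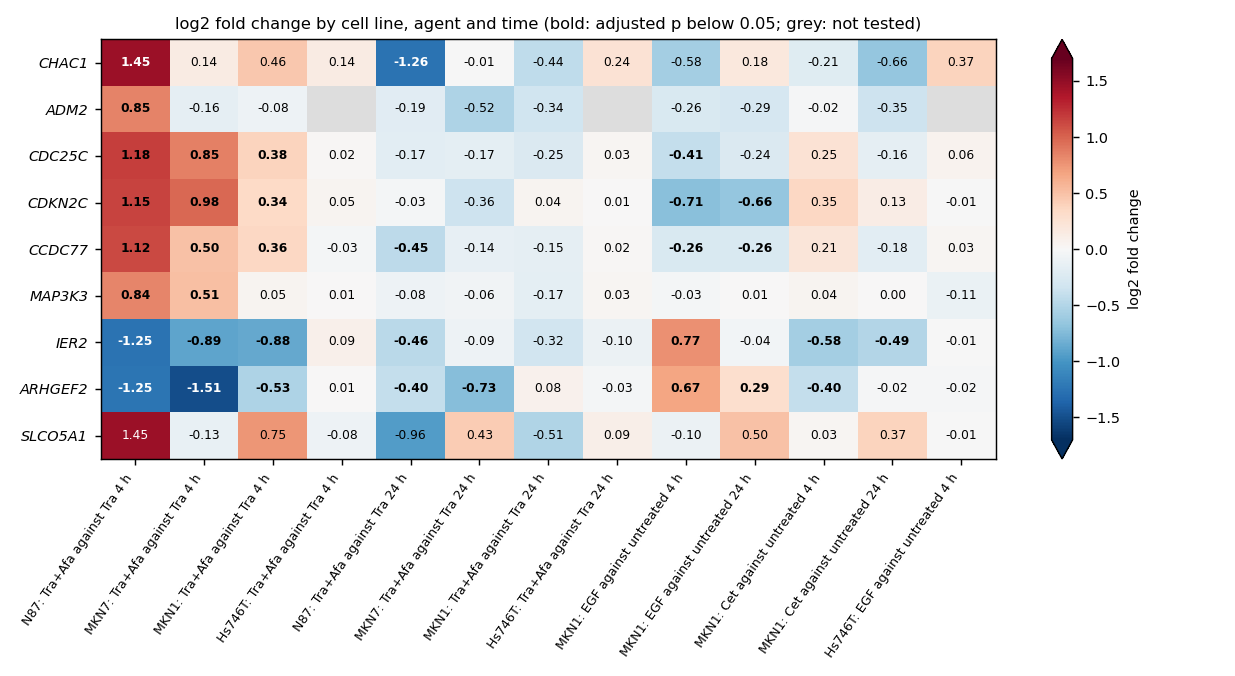
Log2 fold change of each of the 9 genes (rows) in 13 comparisons across the 4 lines, agents and times (columns), with bold for an edgeR adjusted p below 0.05 and grey for not tested. The 4 h Tra+Afa columns go from 8 bold genes in NCI-N87 to 6 in MKN7, 5 in MKN1 and 0 in Hs746T, and the 4 h EGF column of MKN1 has the opposite sign for its 5 bold genes.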

How the data were processed

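Polyadenylated RNA of cell line cultures (4 lines, 44 conditions, 3 replicates each) was converted with a strand-specific kit and sequenced on an Illumina instrument. The authors trimmed and aligned the reads (Trim Galore and STAR per the submitters' processing notes, hg38) and deposited raw read counts per Ensembl gene, 1 table per library with 65217 identifiers. Versions, annotation and strand setting of the counting are not given in the sources used here. Of the identifiers, 8404 were not in GENCODE 29 and held 0.0422% of counts. No 2 replicates were identical, and every pair of replicates differed by more than counting noise.

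Selection values were computed from CPM on library totals with a pseudocount of 1. Tests were run per line on all its libraries, or on those of all lines for differences between lines, with edgeR 4.0.16 in R 4.3.3 (TMM scaling, filterByExpr at 10 counts and 15 in total, quasi-likelihood test). A gene was called at a Benjamini-Hochberg adjusted p below 0.05 over all genes tested, and p-values are two-sided. DESeq2 1.42.0, library totals, other filters, the replicate block, fits on the compared groups and leaving out each replicate were alternatives. The fitting code was tested on simulated counts. The genes and gene lists were chosen with earlier results of these data known.

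Replicate numbers come from the sample titles. They were taken to pair libraries where every same-numbered pair correlated above 0.1 in its deviations from the group means, which held in NCI-N87 within and between times (lowest r 0.204 at 4 h, 0.155 at 24 h and 0.124 between), in MKN7 and Hs746T within times, and in MKN1 at 4 h. Genes named were those with the largest selection values, list members, genes called alike in several lines, genes next to the limits, drug targets and markers. LIMD2, FAM53C, KDM5A, STX10, STRADA and FAF1 were added for their position.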

Additional observations from a re-analysis of the deposited data

Results flagged for a closer look

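The afatinib effect differed between 4 h and 24 h, by a test of the difference itself, for 8 of the 9 genes in NCI-N87 (Tra+Afa against Tra), for 6 in MKN7 and for 3 in MKN1 (Afa against untreated cells in both). CHAC1 and ADM2 were among the 8 in NCI-N87 and not among the 6 in MKN7. The 4 h effect of Tra+Afa over Tra differed between NCI-N87 and MKN1 for 5 of the 9 genes and between NCI-N87 and MKN7 for 1, CCDC77. The count against MKN7 was 0 without replicate 2 or without replicate 3, and 5 with the replicate block, beside 1278 of 22832 genes. Other differences between times or lines, such as NCI-N87 against Hs746T, were tested as well. No cause was tested.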

How the results depend on the processing

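Raising the 4 h limit to 1 left 5 genes in the selection, and leaving out a replicate, or the odd untreated library, gave 10 to 13, of which 5 were among the 9 without replicate 1 (ADM2, ARHGEF2, CDC25C and IER2 left), 6 without replicate 2 and 7 without replicate 3. TMM-scaled CPM gave 7 genes, 6 of them shared, and lost ADM2, ARHGEF2 and IER2. The counts of 8 genes in NCI-N87 at 4 h and in the difference between times, and of 6 in MKN7 at 4 h, stayed within 1.5 times under every alternative run. In NCI-N87 at 24 h (Tra+Afa against Tra, 4 genes), library totals alone gave 2 and leaving out a replicate 1 to 3, the 1 without replicate 2, and CDKN2C turned to 0.25 on library totals. For Tra at 24 h against 4 h (0 genes), library totals, no filter and DESeq2 each gave 1, the replicate block 3 and leaving out a replicate 0 to 1. In MKN7 after 24 h of Afa (3 genes), library totals gave 1 and leaving out a replicate 1 to 3.

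Many MKN1 counts depended on single replicates. Leaving one out gave 1 to 2 of 4 genes after 4 h of Afa, 0 to 2 of 1 after 24 h, 0 to 1 of 3 for the difference between times, 3 to 4 of 5 for EGF at 4 h, 0 to 2 of 2 for Cet at 4 h, 0 to 1 of 1 for Cet at 24 h, 0 to 1 of 1 for EGF+Cet against EGF at 4 h, and 2 to 3 of 5 for Tra+Afa against Tra at 4 h. Fits on the compared groups gave 2 for Afa at 4 h, 0 for Cet at 4 h and at 24 h, 0 for EGF+Cet against EGF and 2 for Tra+Afa at 4 h. With the replicate block the counts were 3 for Afa at 24 h, 4 for Cet at 4 h, 3 for Cet at 24 h and 2 for EGF+Cet against EGF. No filter gave 1 for the difference between times and 3 for Tra+Afa at 4 h. A minimum of 10 counts in every library gave 2 for Afa at 24 h and 2 for EGF+Cet against EGF, library totals 2 for Afa at 24 h, and DESeq2 2 for EGF+Cet against EGF.

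For NCI-N87 minus MKN7 (1 gene), the block gave 5, DESeq2 on the compared groups 3, edgeR on those groups 0 and leaving out a replicate 0 to 1, and for NCI-N87 minus MKN1 (5 genes) leaving out a replicate gave 2 to 5. In other comparisons the block took MKN1 Tra+Afa against Tra at 24 h from 0 to 5, its difference between times from 3 to 5 (CHAC1 and IER2 added), EGF+Cet against EGF at 24 h from 0 to 2 and MKN7 Tra+Afa against Tra at 24 h from 1 to 2. Over all genes it raised the calls from 3751 to 5888 in NCI-N87 at 4 h (Tra+Afa against Tra) and from 730 to 2261 in MKN1 after 4 h of Afa, so its member counts stand beside larger shares of all genes. Causes were not tested. Fits on the compared groups across lines and the selection without the odd library were chosen after seeing the data, and DESeq2 on the libraries of all lines together was not run.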
